A study of Mus musculus with 18 samples.

Results

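Transcripts of 10 voltage-gated calcium channel subunit genes were followed through 18 mouse hearts, out of 23457 genes in the count table and 23396 in the FPKM table. They are Cacna1c, Cacna1d, Cacna1s, Cacna1g and Cacna1h, which encode pore-forming α1 subunits, Cacnb1, Cacnb2 and Cacnb3, which encode β subunits, and Cacna2d1 and Cacna2d2, which encode α2δ subunits. The genes were chosen by name, as subunits of the L-type and T-type channels, with earlier results of these data known, among them the call of Cacna1c in PLCβ1a hearts. One measured value entered the rule: Cacna2d1 is listed at 0 FPKM in hearts that had at least 100 counts, so it was read from the counts. All 10 passed the expression filter of the test, and all 10 are described.

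The hearts came from male C57BL/6 mice aged 17 weeks, injected at 8 weeks through the tail vein with a recombinant adeno-associated virus of serotype 6 (rAAV6) and examined 9 weeks later. The virus carried FLAG-tagged PLCβ1b, FLAG-tagged PLCβ1a, which is the other splice variant of phospholipase Cβ1, or no coding sequence (rAAV6-blank), with 6 hearts in each group. The blank virus keeps a promoter, so every mouse of the study received rAAV6 and there were no uninjected hearts. The comparisons address whether expression of either splice variant alters the ventricular transcriptome, and the PLCβ1a and PLCβ1b groups were each compared with the same 6 blank hearts.

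In a ventricular myocyte the L-type channel opens as the membrane depolarises, and the calcium that enters triggers release of further calcium from the sarcoplasmic reticulum, which starts contraction. Its pore is the α1C protein made from Cacna1c. A cytoplasmic β subunit brings the pore to the membrane and tunes its opening, and an extracellular α2δ subunit raises the number of working channels. T-type channels (Cacna1g and Cacna1h) open at more negative potentials, can work without those partners, and are best known from pacemaker cells and the fetal ventricle.

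Total counts ran from 13246339 to 24155465 per heart, of which 3908354 to 7591558 fell on nuclear genes, the mt-Rnr2 ribosomal RNA of mitochondria accounting for 53.5 to 57.5% of each library. The cardiomyocyte markers Myh6, Tnnt2, Tnni3, Actc1, Ryr2, Pln and Myl2 summed to between 19839 and 21695 CPM (counts scaled to a common library total after TMM), and all 7 passed the expression filter. Atrial and conduction markers (Sln, Myl7, Myl4, Nppa, Hcn4, Shox2, Tbx3 and Isl1) summed to 30.01 to 67.1 CPM, with Isl1 at 0 counts in every heart. One library stood apart in skeletal muscle transcripts. PLCβ1a heart 21 held 19.9 CPM summed over 8 such genes (Mylpf, Tnnt3, Tnni2, Myh1, Myh2, Myh4, Ryr1 and Actn3), where the other 17 hearts held 0.640 to 1.80. Plcb1 itself, the gene that the vectors deliver, averaged 6.26 CPM with the blank vector, 22.2 with PLCβ1a and 46.9 with PLCβ1b, and every PLC heart lay above every blank heart.

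The sequences upstream of 3 of the genes are shown because these encode the pore, β and α2δ subunits with the highest levels per length among the 10. Each run gives the 250 bases before an annotated start in GRCm38.p6 (mm10), from RefSeq, read 5′ to 3′ on the gene's own strand, with any E-box in capitals. Cacna1c lies on the minus strand of chromosome 6 from 118592296 to 119196409, and its run, at chr6:119196410-119196659, precedes the outermost of its starts. Cacnb2 lies on the plus strand of chromosome 2 from 14604306 to 14987908, and its run, at chr2:14604056-14604305, also precedes its outermost start. The sequence source holds 3 entries for Cacna1c, 2 for Cacnb2 and 1 for Cacna2d1, and which start these hearts use was not tested. Cacna2d1 lies on the plus strand of chromosome 5 from 15934691 to 16374511, and its run is chr5:15934441-15934690.
Cacna1c: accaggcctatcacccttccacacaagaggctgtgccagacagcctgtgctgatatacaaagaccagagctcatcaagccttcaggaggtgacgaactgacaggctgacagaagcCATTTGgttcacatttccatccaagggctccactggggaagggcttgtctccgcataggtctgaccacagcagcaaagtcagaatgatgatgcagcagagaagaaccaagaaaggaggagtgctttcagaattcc
Cacnb2: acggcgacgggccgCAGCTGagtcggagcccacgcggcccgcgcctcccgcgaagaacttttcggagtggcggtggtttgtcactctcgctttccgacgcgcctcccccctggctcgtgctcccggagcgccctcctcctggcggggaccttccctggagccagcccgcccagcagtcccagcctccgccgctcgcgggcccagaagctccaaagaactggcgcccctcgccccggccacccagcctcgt
Cacna2d1: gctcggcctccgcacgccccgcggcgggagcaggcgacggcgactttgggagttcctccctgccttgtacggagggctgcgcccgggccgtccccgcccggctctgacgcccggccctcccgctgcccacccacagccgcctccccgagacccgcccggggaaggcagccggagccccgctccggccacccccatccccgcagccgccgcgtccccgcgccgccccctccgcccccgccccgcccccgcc

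The E-box was searched as CANNTG, which reads the same on both strands. It occurred once in the Cacna1c run, once in the Cacnb2 run and 0 times in the Cacna2d1 run, and 66.2% of 32851 upstream runs of this length hold at least 1. None of the 3 holds TATAAA on either strand, which 12.4% of all runs do. In base composition the Cacna1c run (51.6% G and C) was close to the median of all runs (52.4%), while those of Cacnb2 (73.2%) and Cacna2d1 (82.4%) were richer in G and C. A match or its absence describes these letters only. Of the 10 genes, 8 had at least 1 entry in the sequence table.

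Levels of different genes were compared per length, as CPM divided by the kilobases of exon in the annotation deposited with the data. In blank hearts Cacna2d1 stood first at 20.1 ± 1.28 CPM per kilobase (SD, n = 6), followed by Cacna1c at 17.3 ± 0.519. Their ranges in blank hearts overlapped, with Cacna2d1 above Cacna1c in 5 of 6 blank hearts and in 13 of all 18. Cacnb2 came next at 9.11 ± 0.575 CPM per kilobase, below Cacna1c and above every remaining subunit in all 18 hearts.

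A gap of about an order of magnitude separated these 3 genes from the other 7. Cacna1g had 0.893 ± 0.116 CPM per kilobase in blank hearts, Cacna1s 0.677 ± 0.110, Cacnb1 0.670 ± 0.132 and Cacna1h 0.523 ± 0.0839. Each of these 4 overlapped the next in blank hearts, and Cacna1s exceeded Cacnb1 in only 3 of 6. Cacnb3 had 0.316 ± 0.0790, Cacna1d 0.165 ± 0.0341 and Cacna2d2 0.142 ± 0.0375. Cacna1h and Cacnb3 overlapped in range although Cacna1h was the higher of them in all 18 hearts, Cacnb3 and Cacna1d did not overlap in blank hearts, and Cacna1d and Cacna2d2 did.

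**Figure D1:**
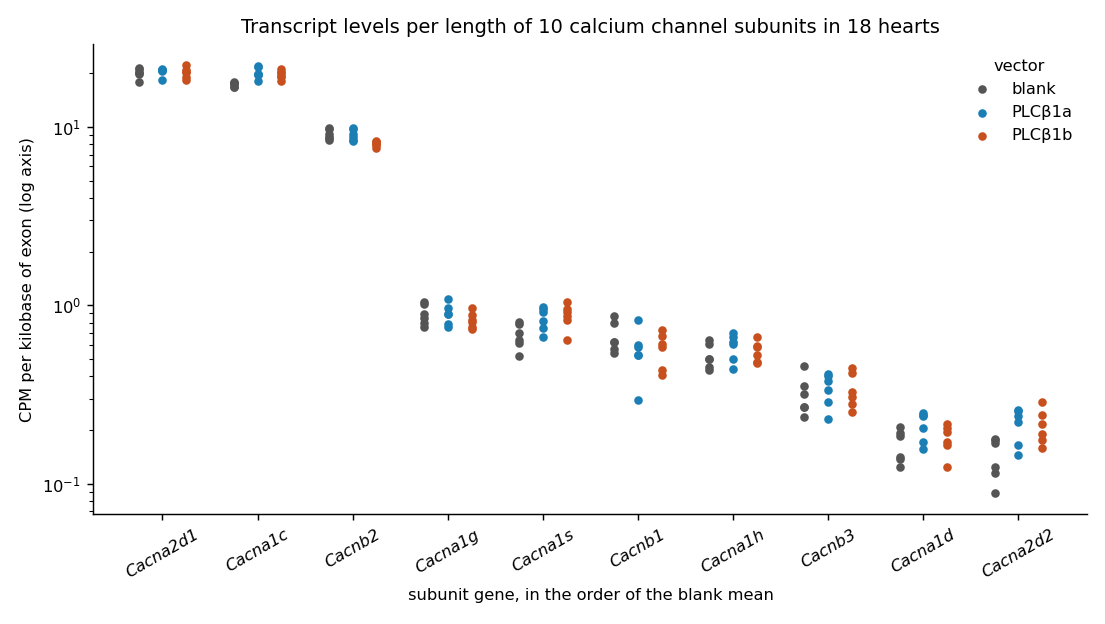
Level per length of each subunit gene in 18 hearts, in CPM per kilobase of exon on a log axis, with 1 point per heart, coloured by vector and ordered by the blank mean. Cacna2d1, Cacna1c and Cacnb2 (blank means 20.1, 17.3 and 9.11) sit apart from the other 7 genes, whose blank means run from 0.142 to 0.893.

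Among the members of each subunit family, 1 gene supplied most of the transcript under every vector. Cacna1c made up 88.5 ± 1.27% of the transcript per length summed over the 5 α1 members with the blank vector, 88.8 ± 1.46% with PLCβ1a and 89.0 ± 0.767% with PLCβ1b (SD, n = 6 each). From the deposited FPKM the blank share was 89.1 ± 1.32%. Cacnb2 made up 90.2 ± 1.95% of the sum over Cacnb1, Cacnb2 and Cacnb3 in blank hearts, 90.9 ± 1.75% with PLCβ1a and 89.9 ± 0.489% with PLCβ1b. For the α2δ pair, Cacna2d1 held 99.3 ± 0.180% in blank hearts and 99.0% in both PLC groups. These sums leave out Cacna1a and Cacnb4, which are not members but were also expressed, at counts like those of Cacna1d and Cacnb1.

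The 10 genes were then compared between groups in a fit of all 12281 genes tested (edgeR's quasi-likelihood test, Benjamini-Hochberg adjustment over all of them, calls at an adjusted p, or FDR, below 0.1). Cacna1c was called higher in PLCβ1a hearts than in blank hearts, by 1.16-fold, and when both PLC groups were pooled. No other member was called in any comparison. Cacna1c alone made 1 of 10 members called against 0.0814% of all genes in PLCβ1a against blank and against 0.195% in both PLC groups against blank. In PLCβ1b against blank 0 of 10 were called, where 0.0977% of all genes were, and in PLCβ1b against PLCβ1a 0 of 10, where 0.00814% of all genes were. That last share is 1 gene, Plcb1 itself, which the vectors carry. Plcb1 was also among the genes called in each comparison with blank. That Cacna1c was called in PLCβ1a hearts was known when the family was chosen, so its count is a description and gives no independent support.

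At an unadjusted p under 0.05 in the same test, 4 of the 10 genes differed in PLCβ1b against blank (7.43% of all genes), 4 in PLCβ1a against blank (8.81%), 4 in both groups against blank (9.38%) and 1 in PLCβ1b against PLCβ1a (4.56%). Cacna1c, Cacna1s and Cacna2d2 were among them in every comparison with blank. The 10 genes were chosen with earlier results of these data known. The counts, medians and signs given here are therefore a description and give no independent support. The median log2 fold change over the 10 was 0.11 in PLCβ1b against blank and 0.17 in PLCβ1a against blank, where the median over all genes was -0.00091 and -0.0018. Estimates against blank were positive for 7 of 10 genes with PLCβ1b, for 8 of 10 with PLCβ1a and for 7 of 10 over both groups. Of all genes 49.6%, 49.4% and 49.3% were positive, and of tested genes with at least 4975 exonic bases 56.6%, 63.4% and 60.3%. All α1 and α2δ members are that long. After a spline correction for exonic length 6 of 10 members were positive in each comparison with blank. In PLCβ1b against PLCβ1a 2 of 10 were positive, where 50.5% of all genes were. Because both comparisons use the same blank hearts, their values are given side by side and not as support for each other. Whole ventricle was sequenced, so fewer cells of a type and less RNA per cell cannot be told apart.

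**Figure D2:**
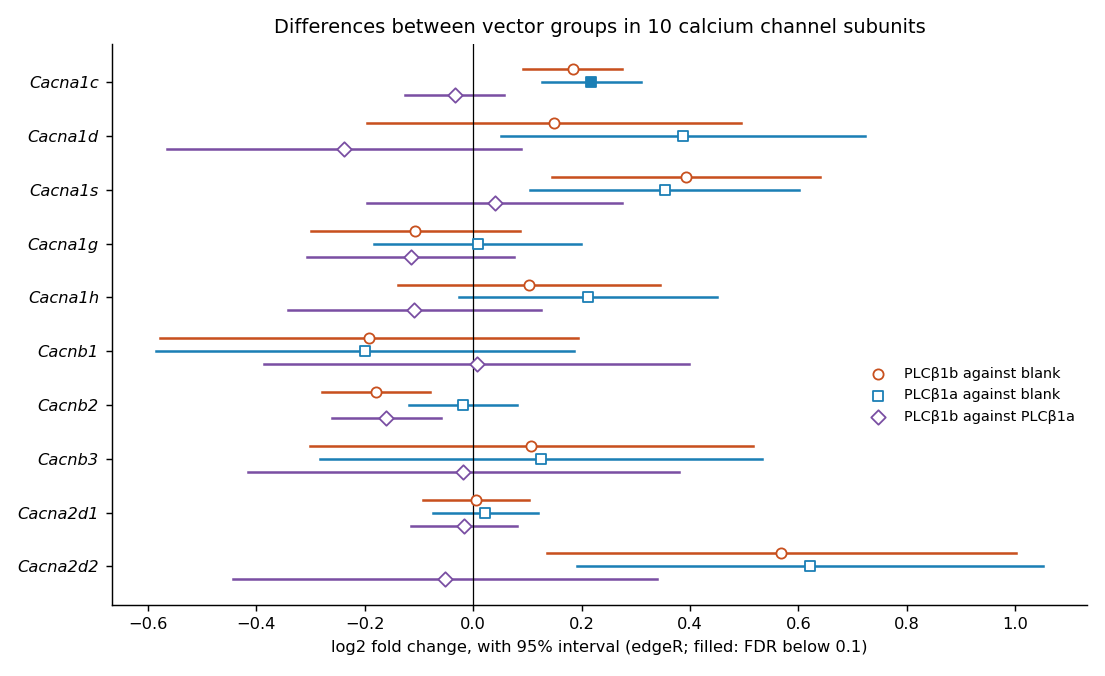
Log2 fold change of each subunit gene in 3 comparisons of vector groups, each point an edgeR estimate with its 95% interval over 6 hearts a group. Cacna1c in PLCβ1a against blank (0.22) is the filled symbol, the estimate with an FDR below 0.1, and the intervals of the thinly expressed genes such as Cacna2d2 are several times wider than those of Cacna1c, Cacnb2 and Cacna2d1.

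Cacna1c encodes α1C, the pore of the cardiac L-type channel. Its level in blank hearts ran from 151 to 162 CPM with a median of 159. With PLCβ1a the lowest was 164, the median 179 and the highest 197, and with PLCβ1b the lowest was 165, the median 178 and the highest 192. All 12 PLC hearts therefore lay above all 6 blank hearts, though the nearest of them, PLCβ1a heart 21, was only just above the highest blank heart. Groups failed to overlap in CPM for 0.594% of all genes in PLCβ1a against blank for 0.480% in PLCβ1b against blank and for 0.0651% in both groups against blank. Raw counts behind these values were 2017 to 4474 per heart.

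The log2 fold change of Cacna1c was 0.22 in PLCβ1a against blank (standard error 0.044, 95% interval 0.13 to 0.31, FDR 0.0758 by edgeR's quasi-likelihood test). In PLCβ1b against blank it was 0.18 (standard error 0.044, interval 0.092 to 0.27), with an FDR of 0.192 that did not pass. The estimate in PLCβ1b against PLCβ1a was -0.03 (interval -0.13 to 0.057), so a difference between these groups was not shown. Plcb1 averaged 46.9 CPM in PLCβ1b hearts and 22.2 in PLCβ1a hearts. For any gene, the splice variant and its level therefore cannot be told apart in this comparison. Over both PLC groups the difference from blank was 0.20 (standard error 0.038, FDR 0.0350 by the same test).

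The call for Cacna1c rested on the test and on the hearts included. In PLCβ1a against blank the FDR ran from 0.0134 with DESeq2 to 0.426 with limma on log2(FPKM + 0.1), it was 0.111 when the model held those groups alone, and 0.0386 with robust quasi-likelihood, a setting chosen after seeing the data. In PLCβ1b against blank DESeq2 gave 0.0741, edgeR's exact test 0.0572 and robust quasi-likelihood 0.115. Over 13 other settings the FDR in PLCβ1b against blank reached 0.672 and was below 0.1 in 2. With single hearts left out it lay between 0.125 and 0.426 and was below 0.1 in 0 of 18 cases. Leaving out single hearts, the FDR in PLCβ1a against blank lay between 0.0199 and 0.20 and was below 0.1 in 8 of 18 cases, while the log2 fold change stayed between 0.19 and 0.25. The call was lost without blank heart 26, 30, 32 or 34, without PLCβ1a heart 7, 9, 11 or 14, and without PLCβ1b heart 6 or 10, the highest FDR being that without blank heart 34. In both groups against blank the call was kept in 17 of 18 cases and lost without blank heart 34, at an FDR of 0.117.

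In FPKM the groups came closer. Blank hearts held 18.9 to 22.2 FPKM of Cacna1c (median 20.6), PLCβ1a hearts 21.4 to 25.8 (median 23.9) and PLCβ1b hearts 21.1 to 25.3 (median 23.0), so that both PLC groups overlapped the blank group. The size of the difference was similar, at log2 changes of 0.20 for PLCβ1a and 0.16 for PLCβ1b on the log2(FPKM + 0.1) scale in limma.

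Log2 fold changes against blank varied with exonic length. Among the 2452 tested genes with at least 4975 exonic bases the median log2 fold change was 0.028 in PLCβ1a against blank and 0.014 in PLCβ1b against blank, and among the 2453 with at most 1678 it was -0.039 and -0.022. Cacna1c has 9053 exonic bases. After a spline correction for exonic length its log2 fold change was 0.17 in PLCβ1a (FDR 0.165 by edgeR's quasi-likelihood test), 0.16 in PLCβ1b (FDR 0.255) and 0.17 over both groups (FDR 0.0996). Dcp1b, a decapping factor gene that overlaps Cacna1c on the opposite strand without sharing exonic bases, had 0.963 to 1.19 CPM in group means and a log2 fold change of -0.24 in PLCβ1a against blank (FDR 0.789). Reads were counted by strand.

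Cacnb2 encodes the β2 subunit, the main β partner of α1C in heart. Blank hearts held 37.6 to 44.0 CPM (median 39.9) and PLCβ1a hearts 37.1 to 43.7 (median 39.9). In PLCβ1b hearts the range was 33.9 to 37.0 CPM with a median of 36.2. Every PLCβ1b heart was below every blank heart and below every PLCβ1a heart. Groups failed to overlap for 0.480% of all genes in PLCβ1b against blank and for 0.179% in PLCβ1b against PLCβ1a. The log2 fold change in PLCβ1b was -0.18 against blank (standard error 0.049, interval -0.28 to -0.079) and -0.16 against PLCβ1a (interval -0.26 to -0.060), with FDRs of 0.271 and 0.959 in edgeR's quasi-likelihood test, so neither was called. In PLCβ1a against blank it was -0.02 (interval -0.12 to 0.081). Over 13 other settings the estimate in PLCβ1b against blank lay between -0.22 and -0.17 and its FDR between 0.177 and 0.626, and no setting called it. In FPKM the PLCβ1b hearts (9.94 to 11.4) overlapped the blank hearts (10.8 to 14.2). Gm13315 lies within an intron of Cacnb2 on the same strand, with a mean of 7.5 counts per heart.

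The estimates of Cacna1c and Cacnb2 in PLCβ1b against blank had opposite signs, though neither passed the test. Their ratio per length within each heart was also computed, a measure chosen after these values were seen and given with no test. Blank hearts had 1.69 to 2.02 Cacna1c transcripts for each of Cacnb2, with a mean of 1.91 ± 0.124 (SD, n = 6). PLCβ1b hearts had 2.33 to 2.58 (mean 2.44 ± 0.0988), all 6 above every blank heart. That separation was fixed by the CPM of the 2 genes and adds nothing to them. Every PLCβ1b heart was already above every blank heart for Cacna1c and below every blank heart for Cacnb2. PLCβ1a hearts were spread from 1.84 to 2.6 (mean 2.25 ± 0.289), with 5 of 6 above every blank heart. The ratio of deposited FPKM gave the same order of groups, with means of 1.69 ± 0.124, 2.20 ± 0.0588 and 2.07 ± 0.284, and again 6 of 6 PLCβ1b hearts above every blank heart and 5 of 6 PLCβ1a hearts.

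**Figure D3:**
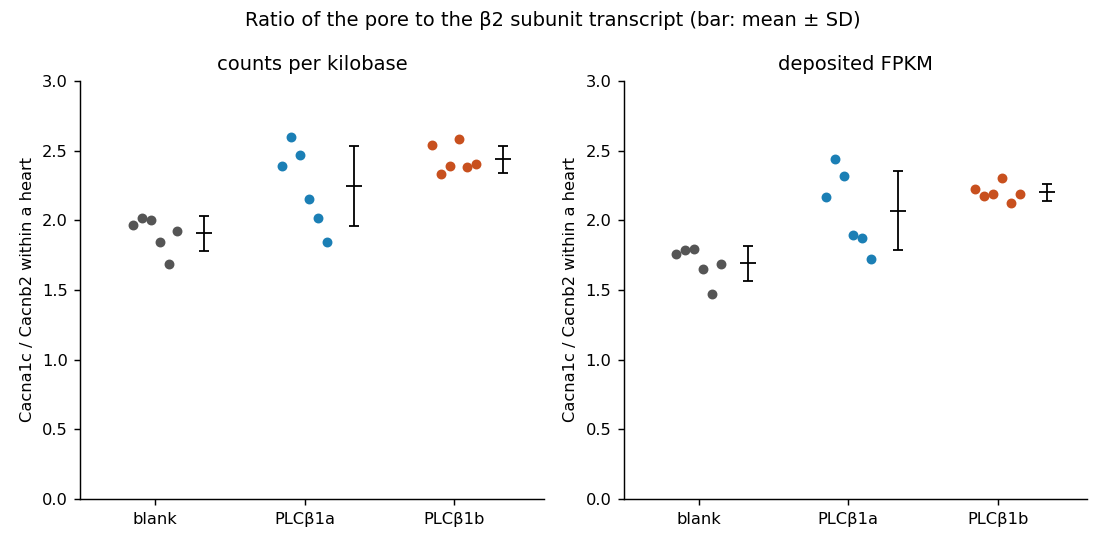
Ratio of Cacna1c to Cacnb2 within each heart, from counts per kilobase of exon (left) and from deposited FPKM (right), with 1 point per heart and bars for the mean ± SD of 6 hearts. On the left PLCβ1b hearts sit between 2.33 and 2.58, above the blank hearts at 1.69 to 2.02, and PLCβ1a hearts span the gap between them. The separation of PLCβ1b from blank on the left follows from the CPM of each gene taken alone.

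Cacna2d1 encodes α2δ-1, the extracellular subunit of the L-type channel. In the FPKM table it is listed at 0 in PLCβ1a heart 7 and in PLCβ1b hearts 4 and 10, where the count table holds 3810, 3247 and 2600 reads. Elsewhere it ran from 22.3 to 25.7 FPKM. The zeros therefore do not describe the gene's level, and the authors' FPKM for it were set aside in favour of the counts.

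**Figure D4:**
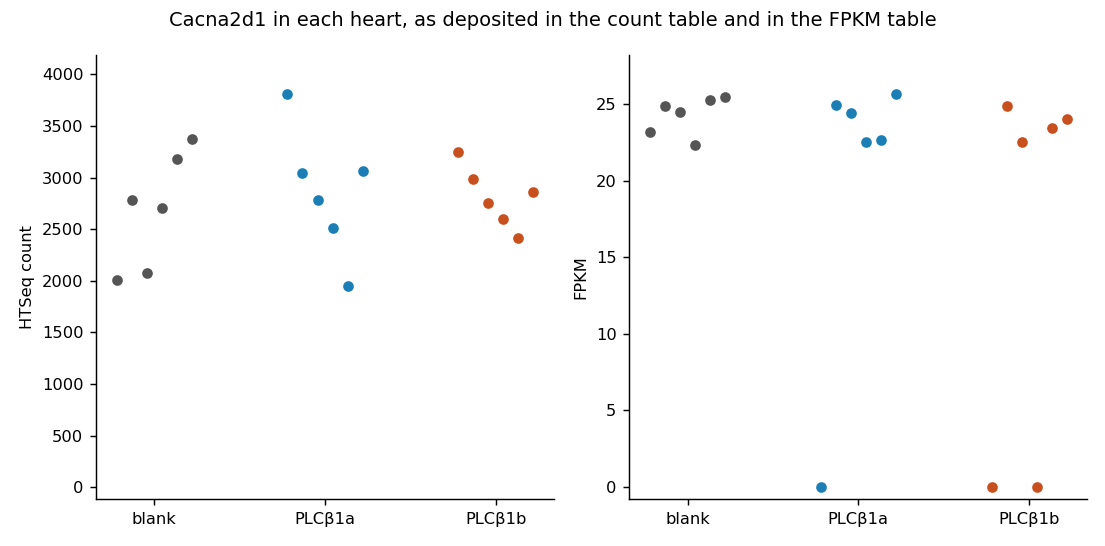
Cacna2d1 in each of 18 hearts, as an HTSeq count (left) and as FPKM (right), with 1 point per heart. The counts run from 1947 to 3810 with no heart near 0, whereas 3 hearts are listed at 0 FPKM and the others lie between 22.3 and 25.7.

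By CPM the 3 groups of Cacna2d1 lay on top of one another. The blank hearts spanned 133 to 160.3 around a median of 151, the PLCβ1a hearts 138 to 157 around 155, and the PLCβ1b hearts 137 to 166 around 152. The log2 fold change against blank was 0.0056 in PLCβ1b (interval -0.092 to 0.10, FDR 0.990 by edgeR's quasi-likelihood test) and 0.022 in PLCβ1a (interval -0.075 to 0.12, FDR 0.929), so that the upper bounds were close to 0.1 on the log2 scale. Leaving out single hearts turned the sign of both estimates.

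Cacna2d2 (chromosome 9, 107399880 to 107529343), which encodes α2δ-2 and is known mainly from cerebellum and lung, had the widest intervals of the 10 genes in the comparisons with blank. It had 9 to 22 counts per blank heart, 10 to 35 per PLCβ1a heart and 14 to 27 per PLCβ1b heart. Its median was 0.811 CPM in the blank group (0.492 to 0.989), 1.28 with PLCβ1a (0.799 to 1.43) and 1.12 with PLCβ1b (0.879 to 1.59). In each PLC group 4 of 6 hearts were above every blank heart and the groups overlapped. Its log2 fold change was 0.57 in PLCβ1b (interval 0.14 to 1.0) and 0.62 in PLCβ1a (interval 0.19 to 1.05), with FDRs of 0.535 and 0.343 in edgeR's quasi-likelihood test. It was 0.59 over both groups (FDR 0.277), and no setting called it.

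Cacna1s (chromosome 1, 136052901 to 136119822) encodes α1S, the L-type pore of skeletal muscle. Blank hearts held 3.25 to 5.05 CPM (median 4.19), PLCβ1a hearts 4.16 to 6.12 (median 5.44) and PLCβ1b hearts 4.0 to 6.56 (median 5.59). Above every blank heart were 4 of 6 PLCβ1a hearts and 5 of 6 PLCβ1b hearts. The log2 fold change was 0.35 in PLCβ1a (interval 0.10 to 0.60, FDR 0.353 by edgeR's quasi-likelihood test), 0.39 in PLCβ1b (interval 0.15 to 0.64, FDR 0.398) and 0.37 over both (FDR 0.207). PLCβ1a heart 21, the library with skeletal muscle transcripts, had 5.95 CPM, and without it the estimate in PLCβ1a was 0.32 (FDR 0.393). None of the 8 skeletal muscle markers passed the expression filter, and their summed level was 1.0 to 1.80 CPM in PLCβ1b hearts against 0.674 to 1.44 in blank hearts.

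Cacna1d (chromosome 14, 30039939 to 30491156) encodes α1D, the L-type pore of the sinoatrial node and atria. With the blank vector its level was 1.15 to 1.91 CPM (median 1.51), with PLCβ1a 1.44 to 2.30 (median 2.05) and with PLCβ1b 1.15 to 2.01 (median 1.69). The groups overlapped, with 3 of 6 PLCβ1a hearts above every blank heart. Log2 fold changes were 0.39 in PLCβ1a (interval 0.052 to 0.72, FDR 0.483 by edgeR's quasi-likelihood test) and 0.15 in PLCβ1b (interval -0.20 to 0.49, FDR 0.873). Atrial and conduction markers summed to 42.7 to 61.8 CPM with the blank vector, 30.01 to 67.1 with PLCβ1a and 39.0 to 55.1 with PLCβ1b, and their part in the Cacna1d values was not tested. Chdh overlaps Cacna1d on the opposite strand over 528 exonic bases and had a mean of 1.78 counts per heart.

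Neither T-type pore gene was called, and their groups overlapped throughout. Cacna1g, which encodes α1G (chromosome 11, 94408391 to 94474198), had a median of 7.18 CPM (6.20 to 8.56) with the blank vector, 7.34 (6.24 to 8.91) with PLCβ1a and 6.75 (6.05 to 7.93) with PLCβ1b. Its log2 fold change was 0.0084 in PLCβ1a (interval -0.18 to 0.20) and -0.11 in PLCβ1b (interval -0.30 to 0.086). Cacna1h, which encodes α1H (chromosome 17, 25374287 to 25433783), had a median of 4.12 CPM (3.59 to 5.28), 5.06 (3.60 to 5.78) and 4.55 (3.90 to 5.48) in the same order of vectors. Its log2 fold change was 0.21 in PLCβ1a (interval -0.027 to 0.45, FDR 0.622 by edgeR's quasi-likelihood test) and 0.10 in PLCβ1b (interval -0.14 to 0.34, FDR 0.875). Blank hearts held 1.74 ± 0.280 Cacna1g transcripts per length for each of Cacna1h, PLCβ1a hearts 1.53 ± 0.113 and PLCβ1b hearts 1.51 ± 0.131 (SD, n = 6 each), ranges that overlapped. Tpsg1 overlaps Cacna1h on the opposite strand over 156 exonic bases, with a mean of 0.389 counts per heart.

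The minor β subunits were measured on few reads. Cacnb1 (chromosome 11, 98002901 to 98022627) encodes β1, the partner of α1S in skeletal muscle, and had 23 to 34 counts per blank heart, 9 to 37 per PLCβ1a heart and 17 to 34 per PLCβ1b heart. Its medians were 1.53, 1.36 and 1.46 CPM, and its log2 fold change was -0.20 in PLCβ1a (interval -0.58 to 0.19) and -0.19 in PLCβ1b (interval -0.58 to 0.19). Cacnb3 (chromosome 15, 98632220 to 98644530) encodes β3, known from neurons and smooth muscle, and had 11 to 22, 14 to 31 and 15 to 26 counts per heart. Its medians were 0.915, 1.11 and 0.991 CPM, and its log2 fold change was 0.13 in PLCβ1a (interval -0.28 to 0.53) and 0.11 in PLCβ1b (interval -0.30 to 0.52). All 4 intervals include 0, so no difference from blank was shown for either gene.

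**Figure D5:**
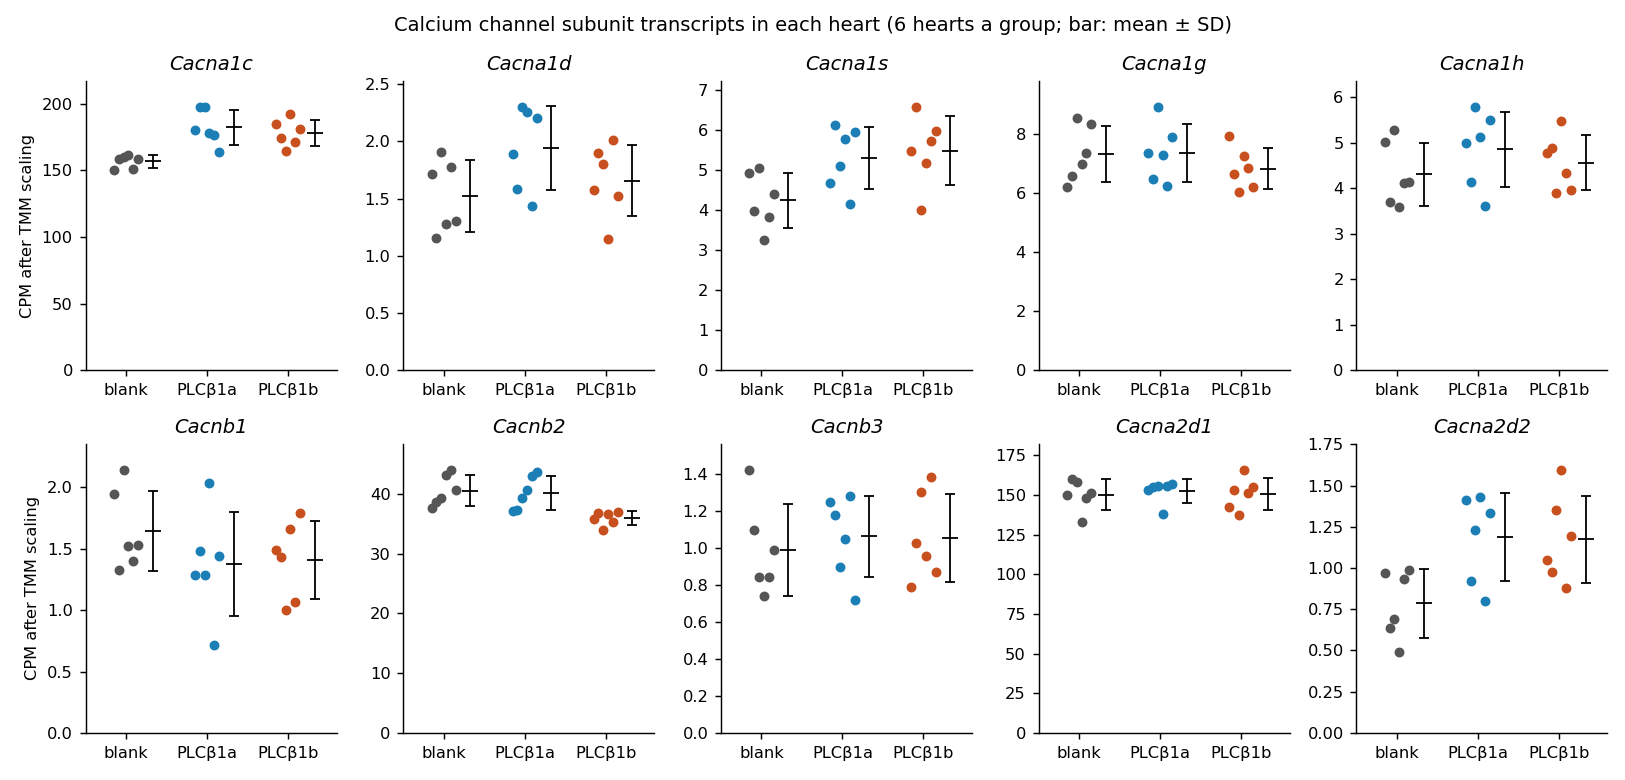
CPM of each of the 10 subunit genes by vector group, with 1 point per heart, bars for the mean ± SD of 6 hearts, and a separate axis from 0 for each gene. The 12 PLC hearts of Cacna1c lie above the blank hearts (151 to 162 CPM), the PLCβ1b hearts of Cacnb2 lie below both other groups, and the groups of the other 8 genes overlap.

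The members were also compared over hearts, after each group's mean was taken out of log2 CPM. Of 45 pairs over 18 hearts 0 had an adjusted p below 0.05 (permutation test within groups, Benjamini-Hochberg over the pairs). Cacna1s and Cacnb1, the α1 and β1 subunits that pair in skeletal muscle, gave the lowest p, with Pearson's r of 0.686 (permutation p = 0.00235, adjusted 0.106) and Spearman's rho of 0.686 (permutation p = 0.00391, adjusted 0.149). Without the 2 hearts farthest from the median of Cacna1s, r was 0.695. In FPKM the same pair led 36 pairs, at r = 0.723 (permutation p = 0.00179, adjusted 0.0644) and rho = 0.670 (permutation p = 0.00519, adjusted 0.187). There r fell to 0.577 without the 2 hearts farthest from the median of Cacna1s. By CPM the pair with the next lowest p for r was that of the T-type genes Cacna1g and Cacna1h, at r = 0.650 (permutation p = 0.00992, adjusted 0.142) and rho = 0.622 (permutation p = 0.0144, adjusted 0.149).

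Over the 12 PLC hearts, again with group means taken out, 0 of 10 members followed Plcb1 at an adjusted p below 0.05. Cacnb3 had the lowest p, with r = -0.720 (permutation p = 0.00892, adjusted 0.0827) and rho = -0.762 (permutation p = 0.0113, adjusted 0.113), and r of -0.639 without the 2 hearts farthest in Plcb1. Cacnb2 went the other way at the same adjusted p, with r = 0.516 (permutation p = 0.0165, adjusted 0.0827), and 0.547 without those 2 hearts. Its rho was 0.434 (permutation p = 0.112, adjusted 0.317). Cacna1c gave r = 0.280 (permutation p = 0.360, adjusted 0.450) and rho = 0.371 (permutation p = 0.222, adjusted 0.317), and r was -0.109 without the 2 hearts farthest in Plcb1. Over all 18 hearts 20 relations of the members with the nuclear count total and the mt-Rnr2 share were computed, and the lowest adjusted p was 0.357.

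The genes whose centred log2 CPM was most like that of Cacna1c over 18 hearts, among 12280 compared, were Gm15800 (r = 0.805), Mtmr3 (0.755), Myo18a (0.746), Slc17a5 (0.744) and Trak1 (0.737). These values describe variation within groups and carry no test. Against blank the 5 had smaller estimates than Cacna1c in either PLC group, with log2 fold changes in PLCβ1a from -0.055 (Trak1) to 0.059 (Mtmr3).

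Of 16 other calcium channel subunit genes, 2 passed the expression filter, Cacna1a and Cacnb4, and neither was called in any comparison. The remaining 14 had at most 10 counts in any heart. Cacna1a, which encodes a P/Q-type pore best known from nerve terminals, had 17 to 35 counts in blank hearts and a log2 fold change of 0.16 in PLCβ1b (FDR 0.855 by edgeR's quasi-likelihood test) and -0.09 in PLCβ1a (FDR 0.917). Cacnb4, a further β subunit gene, had 19 to 35 counts in blank hearts and changes of 0.11 (FDR 0.90) and -0.04 (FDR 0.964). Neuron and glia markers (7 genes, with Snap25 and Th at 0 counts throughout) summed to 1.32 to 2.30 CPM over the 18 hearts.

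Of 21 partners and regulators of the L-type channel, 17 were tested and 0 were called in any comparison. Their median log2 fold change was 0.00084 in PLCβ1b against blank and 0.00387 in PLCβ1a against blank. The lowest p in PLCβ1b against blank was that of Akap5, an anchor for protein kinase A, whose mean was 3.44 ± 0.70 CPM with the blank vector and 4.64 ± 0.563 with PLCβ1b (log2 change 0.43, FDR 0.313 by edgeR's quasi-likelihood test). Rrad, a small GTPase that binds β subunits and restrains the channel, had 43.0 ± 6.02 CPM with the blank vector, 39.1 ± 6.50 with PLCβ1a and 50.7 ± 8.07 with PLCβ1b. Its log2 difference between the PLC groups was 0.38 (FDR 0.858 by the same test), the largest of the 17 in that comparison. Among the others named by p, the log2 changes were -0.08 for Ahnak in PLCβ1b, 0.12 for Akap7 in PLCβ1a, 0.46 for Gem in PLCβ1a and -0.24 for Rem1 in PLCβ1a, with FDRs from 0.568 to 0.678.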

How the data were processed

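RNA from 18 ventricles was depleted of ribosomal RNA and sequenced as strand-specific pairs. The methods name left ventricle and the labels both ventricles. The authors aligned reads to mm10 with TopHat2 (2.0.10 in the submitters' processing notes) and deposited HTSeq counts, whole numbers without normalization. They also deposited FPKM. Cufflinks 2.1 is in the same notes, but its role is not given in the sources used here. Among the counted genes, 27 names had been turned into dates by a spreadsheet (0.0442% of counts).

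Counts were scaled by TMM and fitted for 3 groups in edgeR 4.0.16 (R 4.3.3) with glmQLFit and glmQLFTest, after filterByExpr (minimum count 10, minimum total 15). Intervals (95%) rest on the fit's standard errors. FPKM were tested on log2(FPKM + 0.1) with limma 3.58.1, which understates changes of low genes. DESeq2 1.42.0, edgeR's exact test, other scalings and filters, a length spline (4 degrees of freedom) and each heart left out in turn were alternatives. Robust quasi-likelihood was added after seeing the data. Relations over hearts used 100000 permutations within groups. The main edgeR fit of PLCβ1b against blank, centring, permutation, Benjamini-Hochberg adjustment and motif search were checked on simulated data or known examples. DESeq2, limma, the exact test and the length spline were not. Figures and tables used Python 3.11.15.

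The members, lists and tests were chosen with earlier results of these data known. All 10 members are named. Of the partner lists, the 3 genes with the lowest p in each of PLCβ1b and PLCβ1a against blank are named, with any called, and the 5 genes most like Cacna1c. Of the genes listed at the outset, 2 are not reported here. Endothelial, fibroblast, leukocyte and smooth muscle marker lists held 0 called genes in all 4 comparisons. Each heart is 1 mouse.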

Additional observations from a re-analysis of the deposited data

Results flagged for a closer look

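Cacna2d1 in PLCβ1a heart 13 stood at 138 CPM, where the next lowest heart of that group had 154. The gap took 0.808 of the group's range, more than expected of 6 values at the 95% level. It was 1 of 30 groups examined (10 genes in 3 vector groups), and chance marks about 1 in 20. Its raw counts were in the range of the other hearts of the group.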

How the results depend on the processing

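With PLCβ1b against blank, the members called (0) became 1, Cacna1c, with DESeq2 and with edgeR's exact test. The count of all genes called (12) was 22 with DESeq2, 30 with the exact test, 26 with no filter on low counts, 6 at an FDR below 0.05 and with only the groups compared, and 5 with limma on log2(FPKM + 0.1) or log2(FPKM + 1). With PLCβ1a against blank, the members called (1) became 0 at an FDR below 0.05, with only the groups compared, with limma on either FPKM scale and after the length spline. All genes called (10) became 28 with DESeq2, 45 with the exact test, 32 with no filter, 17 with robust quasi-likelihood, 6 with only the groups compared and with limma on either scale, and 2 at an FDR below 0.05 and after the length spline. For PLCβ1b against PLCβ1a, the 1 gene called was Plcb1. All genes called (1) became 3 with the exact test, 2 with only the groups compared, with mitochondrial genes left out and with no filter, and 0 with limma on log2(FPKM + 0.1) and with robust quasi-likelihood. With both groups against blank, the members called (1) became 0 with limma on either scale. All genes called (24) became 57 with DESeq2, 60 with no filter, 40 with robust quasi-likelihood, 14 among genes averaging 3 FPKM or more, 10 at an FDR below 0.05 and 6 with limma on either scale. With each heart left out in turn, all genes called ran from 4 to 17 in PLCβ1b against blank, from 2 to 20 in PLCβ1a against blank, from 1 to 2 in PLCβ1b against PLCβ1a and from 9 to 55 in both against blank, and members called from 0 to 1 in PLCβ1a and in both groups. Where a count changed, the cause was not tested.

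The sign turned only for estimates near 0. After the length spline the log2 fold change of Cacna2d1 was -0.018 in PLCβ1b, -0.015 in PLCβ1a and -0.017 in both groups against blank, and that of Cacna1g in PLCβ1a was -0.034. Cacna1g in PLCβ1a was -0.033 with limma on log2(FPKM + 0.1) and -0.018 on log2(FPKM + 1). With single hearts left out, Cacna2d1 ran from -0.027 to 0.031 in PLCβ1b, from -0.010 to 0.050 in PLCβ1a, from -0.046 to 0.0085 in PLCβ1b against PLCβ1a and from -0.019 to 0.034 in both groups. Likewise Cacna1g ran from -0.049 to 0.055 in PLCβ1a and Cacnb2 from -0.046 to 0.0067 in PLCβ1a. In PLCβ1b against PLCβ1a, Cacna1s ran from -0.021 to 0.12, Cacnb1 from -0.089 to 0.14, Cacnb3 from -0.11 to 0.065 and Cacna2d2 from -0.15 to 0.0091. Of the alternatives for single members, 1127 kept direction and side of the threshold, 18 lost a call of Cacna1c, 2 gained one and 37 turned the sign. Cacna1c kept its sign in every alternative run. No paired analysis was possible because the labels give no pairing of hearts. The blank hearts are numbered 26 to 36 and the PLC hearts 4 to 21, and library numbers in the titles run group by group. What these numbers stand for is not stated. A difference from blank therefore cannot be told apart from one that follows the numbering. At 9 to 47 counts per heart Cacna1d, Cacnb1, Cacnb3 and Cacna2d2 carry the widest intervals. The exact test and the fit of only the groups compared do not apply to both groups against blank.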
